A study of Mus musculus with 9 samples.

Results

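The 10 genes described here encode amino acid transporters of brain vessels, namely Slc7a5, Slc3a2, Slc7a1, Slc38a5, Slc38a3, Slc38a2, Slc1a1, Slc6a6, Slc6a20a and Slc7a11. They were taken by name from a single-cell RNA-seq count table, as 10 of its 46517 gene rows, and were followed over the 9 cell type labels of its 1235 cells. The lists set beside them hold 40 other amino acid transporter genes, 20 genes known as targets of the transcription factor ATF4 and 13 known as targets of NRF2.

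Brain endothelial cells are sealed to each other by tight junctions, so that amino acids pass between blood and brain through carriers in the cell membranes. Facilitated carriers for large neutral and for cationic amino acids supply the brain, while sodium-coupled carriers for glutamine, glutamate and related amino acids are known for moving them out of the brain fluid and into the endothelium. Pericytes and smooth muscle cells wrap the vessel, fibroblasts lie around larger vessels and in the meninges, microglia lie in the tissue, and each of these carries transporters of its own.

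The study read RNA from single cells of vascular fragments taken from brains of adult mice, sorted into 384-well plates and prepared by Smart-seq2, which covers whole transcripts and uses no molecular identifiers. The labels were aEC (116 cells), capilEC (787), vEC (45), CP-EC (17), PC (54), aSMC (41), vSMC (29), FB (9) and MG (137), and the cells came from 4 plates. Genotype, strain, sex and treatment are not given in the sources used here, no allele or agent is stated for any group, the abbreviations are not spelled out, and no animal is named. Each label is therefore 1 sample without a replicate, differences between labels have no test, and values by plate describe a difference without testing it.

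The labels were checked against marker genes. Summed over 12 pan endothelial genes, the level was 11014 to 15920 reads per 1000000 reads of the type (counts per 1000000, CPM) in aEC, capilEC, vEC and CP-EC, against 816 to 3686 CPM in the other labels. A list of 5 genes of fenestrated endothelium summed to 5278 CPM in CP-EC and to 27.2 CPM or less elsewhere. Arterial genes stood at 1832 CPM in aEC, 199 CPM in capilEC and 313 CPM in vEC, but reached 2472 CPM in vSMC. They were also at 1801 CPM in aSMC and 1722 CPM in PC, so that their sum did not set aEC apart from these labels. Gja4 and Mgp made up most of the sum there, at 947 and 640 CPM in PC. Bmx, Gkn3, Hey1 and Vegfc were higher in aEC, at 248, 535, 251 and 207 CPM. In PC, aSMC and vSMC they were at 53.4, 176, 70.9 and 48.5 CPM or less, in that order. Capillary genes were at 8860 CPM in capilEC, 5432 CPM in aEC and 2147 CPM in vEC. Venous genes led in vEC (3613 CPM), against 422 CPM or less elsewhere. Pericyte genes led in PC (12963 CPM), smooth muscle genes in aSMC (15511 CPM), fibroblast genes in FB (9782 CPM) and microglial genes in MG (27101 CPM), while vSMC held pericyte and smooth muscle genes alike (7051 and 7049 CPM). FB also held 4900 CPM of the pericyte genes, almost all of it Vtn (4760 CPM). Ndufa4l2 stood at 135 CPM there, and Kcnj8, Abcc9 and Higd1b at 3.13 CPM or less. Of the astrocyte list, Aqp4 was at or near 0 CPM in each label, and the 427 CPM of that list in FB were almost all Gja1 (423 CPM). Genes of choroid plexus epithelium and ependyma reached 475 CPM in PC and 261 CPM in FB, against 65.3 CPM or less elsewhere. The highest PC cell held 8791 CPM of them, and their part in the Slc6a20a levels of PC and FB was not tested. How the labels were assigned is not given, and a gene used for that is not independent of its label. The number of cell names shared between cells was 0, as was the number of cells with identical counts. Cells held 100021 to 854836 reads (median 202225), and 3 reads, the limit used for a count of 0, equal 0.0173 CPM in capilEC and 1.17 CPM in FB.

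A level below is the sum of a gene's reads over all cells of a type in CPM, with an exact Poisson 95% interval where one is given. Such intervals, and the exact binomial ones of shares of cells, cover the counting of reads or of cells only. Without molecular identifiers several PCR reads can stem from 1 molecule, so that the Poisson intervals can be narrower than the counting error of molecules. Differences are on log2(CPM + 5). The size rule asked for a 4-fold difference or more, with 50 CPM or more and a read in 50% of cells or more in the higher group. Where types were joined, the value is the mean over the types, with aEC, capilEC and vEC as the endothelial mean and PC, aSMC and vSMC as the mural mean.

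The 10 genes led in different cell types. The highest level was in capilEC for Slc7a5, Slc7a1, Slc38a3 and Slc1a1, in vEC for Slc38a5, in aEC for Slc6a6, in aSMC for Slc38a2, and in FB for Slc6a20a, Slc7a11 and, by a small margin over capilEC that rests on 1 cell, Slc3a2. Summed over the 10 genes, FB held 7470 CPM, capilEC 7004 CPM, vEC 5463 CPM and aEC 4179 CPM, against 874 CPM in aSMC, the lowest. The FB sum rests on 9 cells, and without its highest cell Slc7a11 alone fell from 2351 to 1814 CPM. The order of FB and capilEC in this sum is therefore not read. The 40 other transporters summed to 372 CPM in capilEC and to 4034 CPM in FB.

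**Figure D1:**
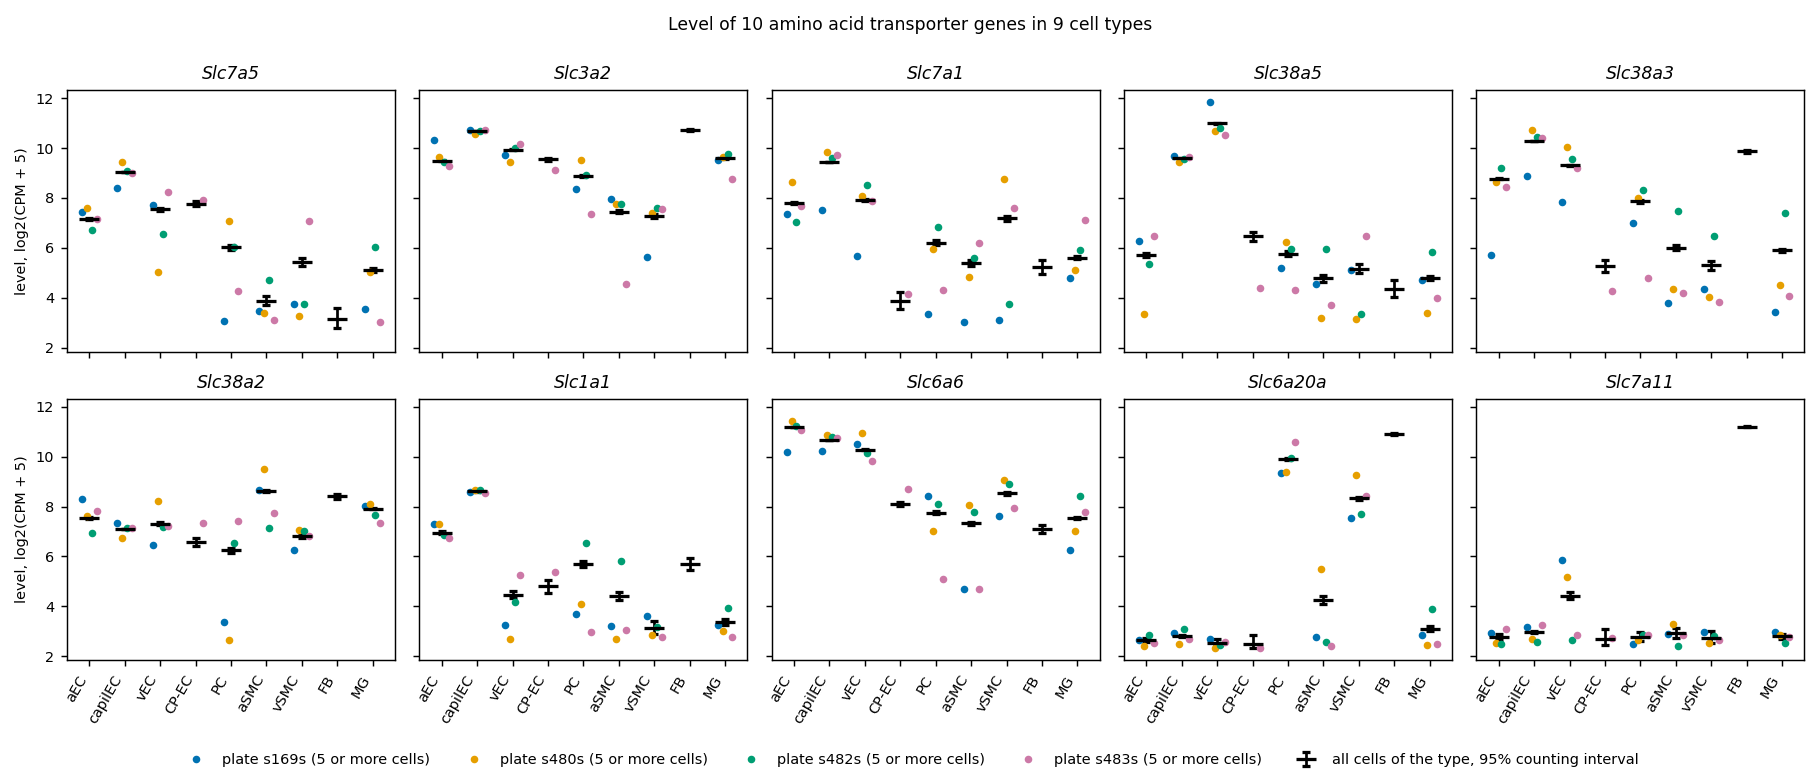
Level of each of the 10 genes in the 9 cell types, on log2(CPM + 5). Black bars are all cells of a type with the 95% counting interval, and coloured points are plates with 5 or more cells of that type. Slc7a11 stands apart in FB, Slc6a20a in FB, PC and vSMC, and Slc38a5 in vEC and capilEC.

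Promoters are shown for 3 genes, chosen because Slc7a11 and Slc6a20a had the lowest levels of the 10 in the endothelial labels and led in FB, whereas Slc38a5 led in vEC. The sequences are from RefSeq on GRCm38.p6 and are written 5′ to 3′ along the gene. They run from 250 bases before to 50 bases after the start of the gene in RefSeq. That start can lie inside the gene as GENCODE draws it, as for Slc38a5 and Slc6a20a here. Examples among the other windows searched are Slc3a2, Slc1a1 and 1 of those of Slc7a1. Capitals mark TGATGCAA on either strand, a C/EBP-ATF response element of the kind bound by ATF4, which raises amino acid genes under amino acid shortage. The windows lie at chr3:50443564-50443863 on the minus strand for Slc7a11, at chr9:123678783-123679082 on the minus strand for Slc6a20a and at chrX:8271131-8271430 on the plus strand for Slc38a5.
Slc7a11: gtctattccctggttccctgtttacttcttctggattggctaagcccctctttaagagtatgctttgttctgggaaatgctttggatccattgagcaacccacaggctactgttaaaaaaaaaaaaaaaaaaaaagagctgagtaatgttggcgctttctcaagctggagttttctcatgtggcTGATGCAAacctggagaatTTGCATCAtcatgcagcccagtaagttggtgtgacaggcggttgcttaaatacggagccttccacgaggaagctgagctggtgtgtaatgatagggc
Slc6a20a: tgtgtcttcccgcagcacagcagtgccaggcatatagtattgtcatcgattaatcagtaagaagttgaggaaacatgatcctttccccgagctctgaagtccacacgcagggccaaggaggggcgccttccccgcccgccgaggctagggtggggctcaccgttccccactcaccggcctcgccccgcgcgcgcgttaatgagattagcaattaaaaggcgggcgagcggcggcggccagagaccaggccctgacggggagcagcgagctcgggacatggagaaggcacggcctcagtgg
Slc38a5: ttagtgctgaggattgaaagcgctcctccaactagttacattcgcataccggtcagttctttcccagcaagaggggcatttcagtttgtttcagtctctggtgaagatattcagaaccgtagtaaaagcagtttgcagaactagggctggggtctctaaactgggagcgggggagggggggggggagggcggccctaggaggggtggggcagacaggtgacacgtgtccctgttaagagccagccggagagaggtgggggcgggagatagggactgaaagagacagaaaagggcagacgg
The Slc7a11 window holds the element at 2 places, beginning 66 and 47 bases before the start. Of 32851 promoter windows of this length in the table, 294 (0.895%) hold it at 1 place or more and 2 (0.00609%) at 2 or more. The table matched 7 of the 10 genes with 8 windows, and the element was not found in the windows of the other 6. The antioxidant response element TGACNNNGC, searched on both strands, was found in 12.4% of all windows, and here in that of Slc38a2 and in 1 of those of Slc7a1. The Slc7a11 window holds 4 CG pairs, those of Slc38a5 and Slc6a20a 10 and 25, and that of Slc38a2 41, against a median of 7 over all windows. These are matches of letters and not measured binding sites.

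Slc7a5 encodes LAT1, the carrier of large neutral amino acids such as leucine, tryptophan and L-DOPA at the blood-brain barrier (ENSMUSG00000040010.10, GRCm38 chromosome 8, 121881150 to 121907694). Its level was 520 CPM in capilEC (interval 517 to 524), 214 in CP-EC, 181 in vEC, 138 in aEC, followed by 60.1 in PC, 38.8 in vSMC, 29.9 in MG, 9.72 in aSMC and 3.91 in FB. It was highest in the endothelial labels with its peak in capilEC, and the plate ranges overlapped between each pair of neighbours from vEC through aEC, PC, vSMC and MG to aSMC. In capilEC it stood at 334, 687, 542 and 512 CPM on plates s169s, s480s, s482s and s483s. At least 50 CPM was reached in 67.7% of capilEC cells (exact binomial interval 64.3 to 71.0%), 42.2% of vEC cells (27.7 to 57.8%) and 31.0% of aEC cells (22.8 to 40.3%), against 8.03% of MG cells (4.08 to 13.9%). The CP-EC level rests on few cells, since 2 of 17 cells (11.8%) reached 50 CPM, 60.7% of the counts came from 1 cell, and the level without that cell was 88.6 CPM. In vSMC 82.8% of the counts came from 1 cell, and the level without it was 7.35 CPM.

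Slc3a2 encodes the heavy chain 4F2hc (CD98), which joins LAT1, xCT and other light chains and brings them to the cell surface (ENSMUSG00000010095.13, chromosome 19, 8706882 to 8723369). Its level was 1700 CPM in FB, 1636 in capilEC, 974 in vEC, 763 in MG, 745 in CP-EC, 718 in aEC, 461 in PC, 170 in aSMC and 150 in vSMC. Each type held it, and of the 10 genes only Slc38a2 had a narrower range over types. In FB 35.0% of the counts came from 1 of the 9 cells, and without the cell of the largest count in each type FB stood at 1287 CPM, below capilEC at 1634 CPM. The counting intervals of MG and CP-EC overlapped, as did those of CP-EC and aEC, while capilEC (plates 1508 to 1694 CPM) lay above vEC (693 to 1133 CPM) on all plates.

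The light chain found beside Slc3a2 differed from type to type when levels were taken per kb of exon. Slc7a5 made up 90.0% of the summed level of 6 light chain genes (Slc7a5, Slc7a6, Slc7a7, Slc7a8, Slc7a10 and Slc7a11) in capilEC, 55.9% in aEC, 50.4% in vEC and 50.4% in CP-EC. In FB, Slc7a11 made up 95.2%. In MG, Slc7a8, which encodes the neutral amino acid carrier LAT2, made up 61.7% and Slc7a7, which encodes y+LAT1, 31.6%. The endothelial labels other than capilEC also held Slc7a7, at 23.5% in aEC, 30.5% in vEC and 46.6% in CP-EC. In CP-EC the order rests on 1 cell, since without the cell of the largest Slc7a5 count, a setting chosen after seeing the data, Slc7a7 made up 67.1% and Slc7a5 28.5%. In vSMC Slc7a5 made up 66.2%, and 25.2% without such a cell. In PC the leading light chain was Slc7a10 at 47.0%, read in 9.26% of the cells, and in aSMC it was Slc7a6 at 57.1%, where the light chains summed to 11.6 CPM per kb. The ratio of summed light chains to Slc3a2 per kb was 0.240 to 0.542 in 8 types and 1.04 in MG.

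**Figure D2:**
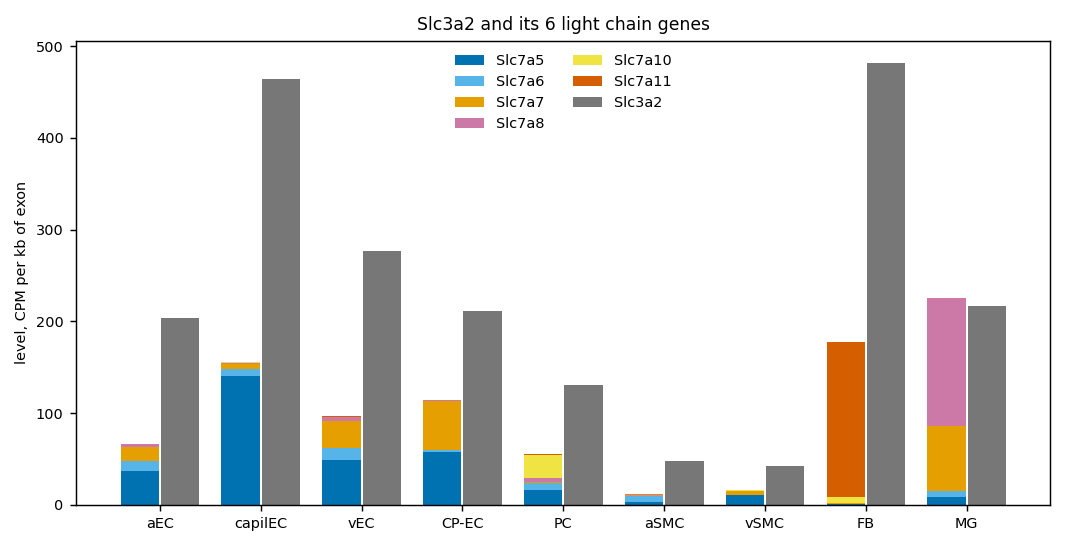
Level per kb of exon of Slc3a2 (grey bars) and of its 6 light chain genes (stacked bars) in the 9 cell types, in CPM per kb. The stack is mostly Slc7a5 in capilEC, Slc7a11 in FB, and Slc7a8 with Slc7a7 in MG.

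Slc7a1 encodes CAT1, the carrier of arginine, lysine and ornithine (ENSMUSG00000041313.14, chromosome 5, 148327410 to 148399904). Its level was 693 CPM in capilEC (689 to 697), 237 in vEC, 216 in aEC, 141 in vSMC, 69.1 in PC, 43.9 in MG, 37.3 in aSMC, 32.9 in FB and 9.67 in CP-EC. CapilEC led, and CP-EC, although endothelial by its markers, stood last, with 0 of 17 cells at 50 CPM (an upper bound of 19.5%) against 53.6% of capilEC cells. The capilEC level was 176 CPM on plate s169s and 842 CPM on the other plates together, a difference of -2.23 log2 units that 2.16% of 10834 genes matched or exceeded. The plate ranges of capilEC, vEC and aEC therefore overlapped, although within each plate capilEC stood above both. In vSMC 61.6% of the counts came from 1 cell and the level without it was 57.2 CPM, and in FB 91.7% came from 1 cell, with 3.50 CPM without it.

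Slc38a5 encodes SNAT5, a system N carrier of glutamine, asparagine, histidine and serine (ENSMUSG00000031170.14, chromosome X, 8271133 to 8280179). Its level was 2026 CPM in vEC (2003 to 2050), 764 in capilEC (760 to 768), 83.1 in CP-EC, 49.7 in PC, 47.4 in aEC, 31.0 in vSMC, 23.0 in MG, 22.6 in aSMC and 15.6 in FB. VEC lay above capilEC without overlap of the plates (1471 to 3666 against 691 to 812 CPM), and aEC stood beside PC. Among single cells, 95.6% of vEC cells (84.9 to 99.5%) and 53.7% of capilEC cells (50.2 to 57.3%) reached 50 CPM, against 7.76% of aEC cells (3.61 to 14.2%). The median cell held 2195 CPM in vEC, 107 CPM in capilEC and 7.76 CPM in aEC. The share of capilEC cells above 50 CPM was 52.0%, 52.0%, 56.6% and 54.2% on the 4 plates, so each plate held cells above and below that level.

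A read of Slc38a5 was much more widespread than such levels. After thinning to 100000 reads a read was found in 97.8% of vEC, 84.0% of capilEC and 58.6% of aEC cells, but also in 61.3% of MG cells, where the median cell held 9.31 CPM. The share in aEC did not exceed that in MG, so that it is not read as expression, although the summed level was 47.4 CPM in aEC and 23.0 CPM in MG, with counting intervals that did not overlap. The 14 MG cells with endothelial genes held 137 CPM and the other 123 held 10.5 CPM. Cells of vEC, capilEC, aEC and MG had median depths of 261300, 192941, 235862 and 232674 reads. The share at 50 CPM or more was therefore used, a level chosen after the values were seen. In CP-EC 81.8% of the counts came from 1 cell, and the level without it was 17.6 CPM.

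Slc38a3 encodes SNAT3, the other system N carrier of glutamine (ENSMUSG00000010064.15, chromosome 9, 107650634 to 107669530). Its level was 1238 CPM in capilEC (1233 to 1244), 936 in FB (899 to 975), 628 in vEC, 431 in aEC, 228 in PC, 59.4 in aSMC, 55.3 in MG, 34.3 in vSMC and 34.1 in CP-EC. CapilEC and FB thus led, and the order aEC, vEC, capilEC was the same in each plate, although the plate ranges overlapped. The cells at 50 CPM or more were 71.3% in capilEC, 62.2% in vEC, 46.6% in aEC and 77.8% in FB. On plate s169s capilEC held 461 CPM against 1462 CPM on the others, a difference of -1.66 log2 units matched or exceeded by 6.77% of genes.

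Slc38a2 encodes SNAT2, a system A carrier of small neutral amino acids that cells raise when amino acids are scarce (ENSMUSG00000022462.7, chromosome 15, 96687392 to 96699730). Its level was 385 CPM in aSMC, 334 in FB, 237 in MG, 181 in aEC, 153 in vEC, 132 in capilEC, 109 in vSMC, 91.9 in CP-EC and 71.0 in PC. It varied least of the 10, with the lowest type at 18.4% of the highest, and the plate ranges of neighbours in that order overlapped wherever they were given. In aSMC the plates ran from 135 to 718 CPM and in PC from 1.31 to 168 CPM.

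**Figure D3:**
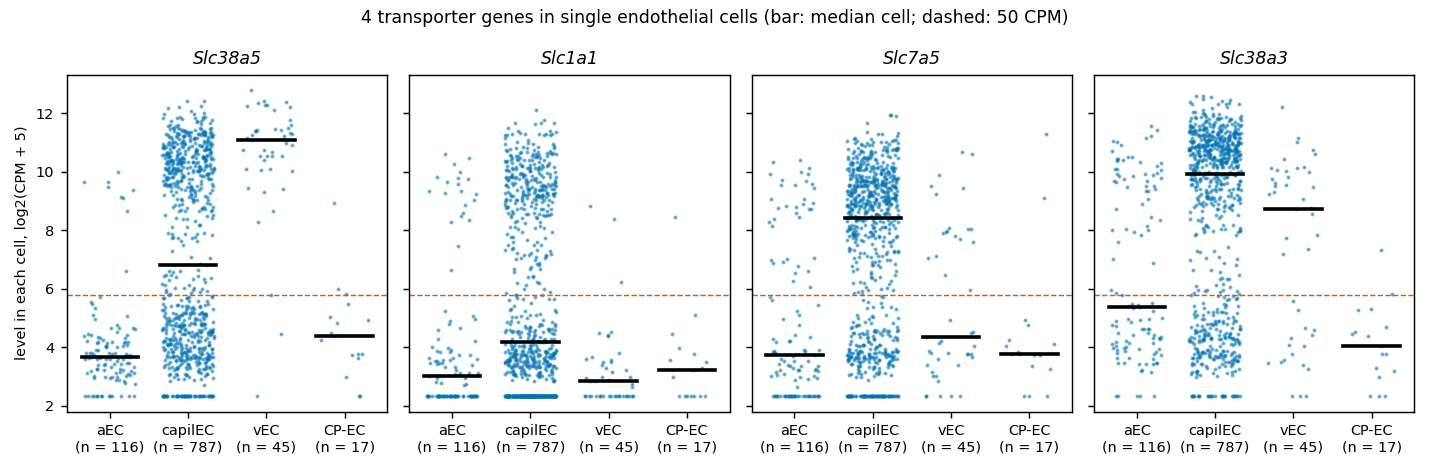
Level of Slc38a5, Slc1a1, Slc7a5 and Slc38a3 in single cells of the 4 endothelial labels, on log2(CPM + 5), with bars at the median cell and a dashed line at 50 CPM. Cells fall into a low and a high band, and for Slc38a5 the share in the high band is 7.76% in aEC, 53.7% in capilEC and 95.6% in vEC.

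Slc1a1 encodes EAAC1 (EAAT3), a sodium-coupled carrier of glutamate and cysteine (ENSMUSG00000024935.11, chromosome 19, 28835049 to 28913960). Its level was 385 CPM in capilEC (383 to 388), 119 in aEC (116 to 123), 47.4 in PC, 46.9 in FB, 23.0 in CP-EC, 17.2 in vEC (15.1 to 19.5), 16.6 in aSMC, 5.43 in MG and 3.81 in vSMC. Unlike Slc38a5 it was lower in vEC than in aEC, and the plates of capilEC (364 to 404 CPM), aEC (101 to 155 CPM) and vEC (1.43 to 33.5 CPM) did not overlap. At least 50 CPM was reached in 40.3% of capilEC cells (36.8 to 43.8%), 18.1% of aEC cells (11.6 to 26.3%) and 6.67% of vEC cells (1.40 to 18.3%). In FB 96.7% of the counts came from 1 cell, and the level without it was 1.71 CPM.

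Slc6a6 encodes TauT, the sodium- and chloride-coupled carrier of taurine and beta-alanine (ENSMUSG00000030096.8, chromosome 6, 91684053 to 91759066). Its level was 2325 CPM in aEC (2308 to 2342), 1629 in capilEC, 1229 in vEC, 366 in vSMC, 269 in CP-EC, 211 in PC, 179 in MG, 157 in aSMC and 133 in FB. The brain endothelial labels aEC, capilEC and vEC stood above all others, and the plates of vEC (897 to 1960 CPM) did not overlap those of vSMC (191 to 534 CPM). Neighbours among aEC, capilEC and vEC overlapped by plate, and 94.8%, 84.2% and 88.9% of their cells reached 50 CPM. In FB 88.5% of the counts came from 1 cell, and the level without it was 16.7 CPM. With cells holding markers of any other class left out, the level was 25.2 CPM in vSMC, 32.3 in aSMC and 22.1 in PC.

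Slc6a20a encodes SIT1, the carrier of proline and other imino acids (ENSMUSG00000036814.13, chromosome 9, 123634770 to 123678885). Its level was 1916 CPM in FB (1863 to 1971), 958 in PC (939 to 977), 316 in vSMC (303 to 330), 14.2 in aSMC, 3.62 in MG, 2.08 in capilEC, 1.28 in aEC, 0.779 in vEC and 0.604 in CP-EC. It was thus high in FB and in 2 of the mural labels, and its plates in PC (643 to 1530 CPM), vSMC (180 to 611 CPM) and aSMC (0.359 to 40.6 CPM) did not overlap. At least 50 CPM was reached in 88.9% of FB cells (51.8 to 99.7%), 61.1% of PC cells (46.9 to 74.1%) and 55.2% of vSMC cells (35.7 to 73.6%), against 2 of the 137 MG cells (1.46%). In aSMC 95.8% of the counts came from 1 cell, and the level without it was 0.632 CPM. Its near-identical paralog Slc6a20b was listed at 7.01 CPM in PC and 5.08 CPM in FB, and reads of the 2 genes may be split between them.

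Slc7a11 encodes xCT, which brings in cystine in exchange for glutamate and feeds glutathione synthesis (ENSMUSG00000027737.10, chromosome 3, 49892526 to 50443614). Its level was 2351 CPM in FB (2292 to 2411), 16.6 in vEC, 2.84 in capilEC, 2.58 in aSMC, 1.96 in MG, 1.87 in PC, 1.82 in aEC, 1.75 in vSMC and 1.51 in CP-EC. FB stood 142-fold above vEC, and from capilEC down the counting intervals of neighbours overlapped. In vEC 60.3% of the counts came from 1 cell, and the level without it was 6.71 CPM. At least 50 CPM was reached in 7 of the 9 FB cells (77.8%, 40.0 to 97.2%) and in 0 to 4.44% of the cells of each other label.

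The 9 FB cells were read 1 by 1. For Slc7a11 they held 0, 2.25, 370, 1474, 2173, 2490, 2857, 3466 and 5612 CPM, and for Slc6a20a 0, 947, 1208, 1698, 2008, 2103, 2158, 3279 and 4318 CPM. At least 200 CPM was reached by 7 cells for Slc7a11, 8 for Slc6a20a, 6 for Slc3a2, 6 for Slc38a3 and 4 for Slc38a2. A cell from plate s482s with 12275 CPM of the fibroblast list held 0 CPM of Slc6a20a and 2.25 CPM of Slc7a11, and a cell from plate s169s with 13847 CPM of that list held 2008 CPM of Slc6a20a and 0 CPM of Slc7a11. The counts of Slc1a1 and Slc6a6 came from a cell on plate s169s with 5627 CPM of the pan endothelial list, against 126 to 1132 CPM in the other 8 cells, and the part of endothelial RNA in those levels was not tested.

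**Figure D4:**
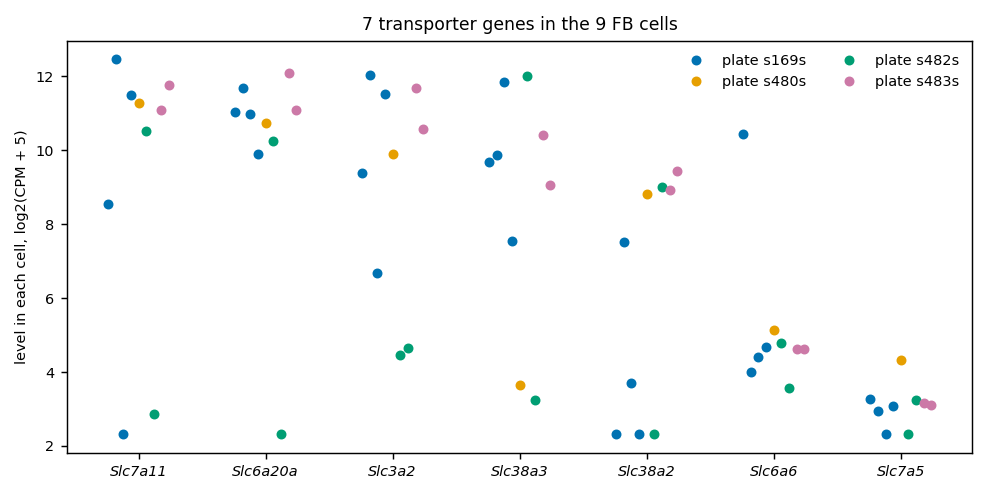
Level of 7 of the genes in each of the 9 FB cells, on log2(CPM + 5), coloured by plate. Slc7a11 and Slc6a20a are high in 7 and 8 of the cells, while Slc7a5 is at 15.2 CPM or less in all 9.

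Endothelial and mural labels were compared to see which carriers mark the vessel lining. Of the 10 genes, 7 met the size rule as higher in the endothelial mean and 1, Slc6a20a, as higher in the mural mean, and over all 12714 measured genes 1.79% and 1.12% met it. The log2 differences were 4.59 for Slc38a5 (946 against 34.4 CPM), 2.80 for Slc6a6 (1728 against 245), 2.79 for Slc7a5 (280 against 36.2), 2.78 for Slc38a3 (766 against 107), 2.70 for Slc1a1 (174 against 22.6), 2.15 for Slc7a1 (382 against 82.5) and 2.07 for Slc3a2 (1109 against 260). Slc6a20a stood at 1.38 against 429 CPM (-6.09). Each of these 8 had the same sign in all 4 plates, whereas Slc38a2 (155 against 188 CPM, plates -0.52 to 0.19) and Slc7a11 (7.08 against 2.07 CPM) did not meet the rule. Without cells of other-class markers the difference of Slc6a6 was 5.79. The median of the 10 was 2.42 against 0.03 over all genes. The call of Slc6a20a was lost on the minimum share of cells with a read, at a difference of -5.14 where cells with markers of any other class were left out and of -6.09 with the share of cells taken after thinning. Slc3a2 lay near the limit and was not called with size factors of DESeq2 (1.88 log2 units), without plate s169s, without plate s483s or without cells holding fibroblast genes.

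**Figure D5:**
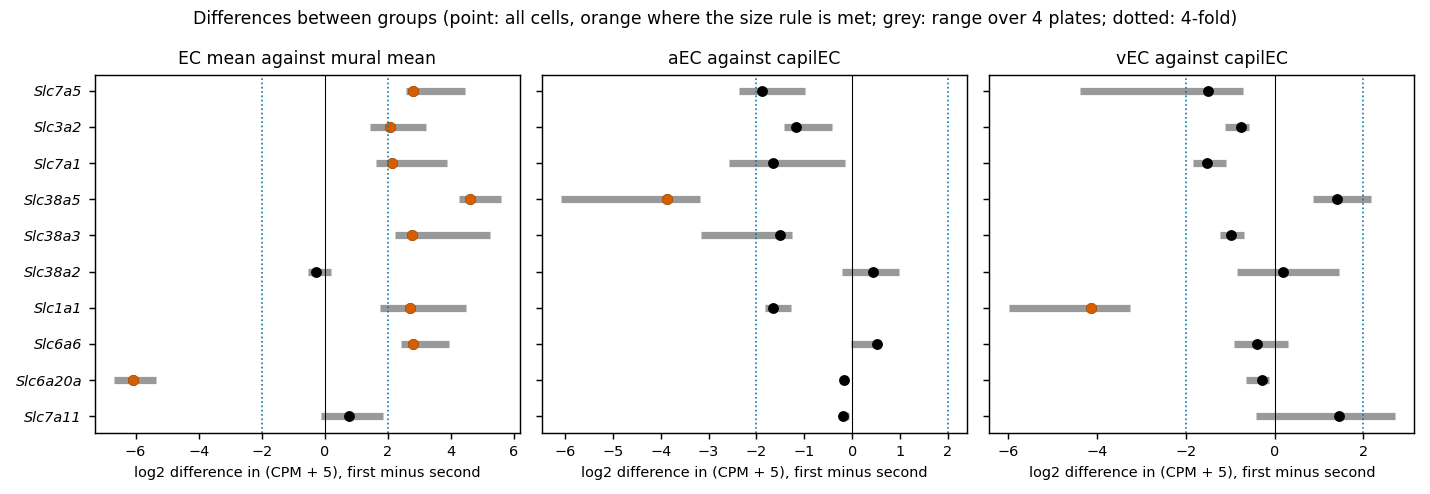
Log2 difference in (CPM + 5) of the 10 genes for the endothelial against the mural mean, aEC against capilEC and vEC against capilEC. Points are all cells, orange where the size rule is met, grey bars the range over 4 plates, and dotted lines 4-fold. In the first panel 7 points are orange to the right and Slc6a20a to the left, in the second Slc38a5 alone, and in the third Slc1a1 alone.

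Transcripts of endothelial genes were present in the mural labels, with 23.2% of the capilEC level of the pan endothelial list in PC. The PC levels of 6 endothelial carriers, as a percentage of capilEC, were 6.51% for Slc38a5, 9.97% for Slc7a1, 11.6% for Slc7a5, 12.3% for Slc1a1, 18.4% for Slc38a3 and 28.2% for Slc3a2. In the 35 of 54 PC cells with more than 10% of the endothelial list level, Slc6a6 stood at 311 CPM and Slc7a5 at 85.6 CPM, against 24.5 and 12.1 CPM in the other 19 cells. For Slc38a3 the levels of these groups of PC cells were closer, at 239 and 209 CPM. Slc6a20a was also higher in the cells with endothelial genes (1351 against 219 CPM), although the endothelial labels held 2.08 CPM of it or less. With cells holding markers of any other class left out, 14 PC cells remained, with 293 CPM of Slc6a20a, 281 of Slc38a3, 22.1 of Slc6a6 and 14.4 of Slc7a5. Slc6a20a stood at 359 CPM in the 16 vSMC cells left in that way, so that PC no longer led vSMC. The fibroblast list summed to 630 CPM in PC, 316 in aSMC and 258 in vSMC, and the 10 PC cells above 10% of its FB level held 259 CPM of Slc6a20a against 1128 CPM in the other 44.

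Along the endothelium, from aEC through capilEC to vEC, the question was which carriers differ with the label. Against capilEC, 0 of the 8 measured genes were higher and 1 was lower in aEC, namely Slc38a5 (47.4 against 764 CPM, -3.87, plates -6.08 to -3.17), where 0.148% of all genes met the rule as higher and 0.0955% as lower. The other carriers led by capilEC were lower in aEC by less than 4-fold, with log2 differences of -1.88 for Slc7a5 (plates -2.37 to -0.98), -1.66 for Slc7a1 (-2.57 to -0.14), -1.65 for Slc1a1 (-1.81 to -1.28), -1.51 for Slc38a3 (-3.17 to -1.25) and -1.18 for Slc3a2 (-1.43 to -0.41). All of these kept their sign in 4 of 4 plates. Slc6a6 differed by 0.51 (plates -0.02 to 0.54) and Slc38a2 by 0.44 (-0.22 to 0.98), and the median of the 8 was -1.58 against 0.00 over all genes. Without plate s169s, which held 7 aEC cells, Slc7a5 also met the rule (-2.03).

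Against capilEC, vEC had 0 genes that met the rule as higher and 1 as lower of 9 measured, namely Slc1a1 (17.2 against 385 CPM, -4.14, plates -5.99 to -3.26), with 0.296% and 0.212% of all genes meeting it. Slc38a5 was higher in vEC by 1.40 (plates 0.88 to 2.17), short of 4-fold. Lower in vEC in each plate were Slc7a1 (-1.53), Slc7a5 (-1.50, plates -4.39 to -0.70), Slc38a3 (-0.98) and Slc3a2 (-0.74). The difference of 1.46 for Slc7a11 ran from -0.41 to 2.71 over plates. Leaving out plate s483s brought Slc7a5 within the rule (-2.18).

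Set directly against each other, aEC and vEC differed mainly in Slc38a5 and Slc1a1, in opposite directions. Of 9 measured genes, 1 was higher in aEC, Slc1a1 (2.49, plates 1.46 to 4.64), and 1 was higher in vEC, Slc38a5 (-5.28, plates -7.31 to -4.05), where 0.51% and 0.452% of all genes met the rule. Slc1a1 was not called with a pseudocount of 20 CPM (1.91) or with the share of cells taken after thinning. For Slc7a5, Slc3a2, Slc7a1 and Slc38a2 the sign was shared by 2 of 4 plates. The list of 12 immediate early genes, which respond to handling of tissue among other stimuli, summed to 6211 CPM in aEC, 6072 in vEC and 2879 in capilEC, and its part in these differences was not tested.

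CP-EC, with its genes of fenestrated endothelium, was compared with capilEC as endothelium of another kind. Of 8 measured genes 5 met the rule as lower in CP-EC and 0 as higher, against 1.63% and 0.579% of all genes. They were Slc7a1 (9.67 against 693 CPM, -5.57), Slc38a3 (34.1 against 1238, -4.99), Slc1a1 (23.0 against 385, -3.80), Slc38a5 (83.1 against 764, -3.13) and Slc6a6 (269 against 1629, -2.58). Plate s483s, the only one with 5 or more CP-EC cells, gave -5.58, -6.15, -3.14, -5.24 and -2.03 in that order. Slc3a2 (-1.13) and Slc7a5 (-1.26) did not reach 4-fold, but without the cell with the largest count Slc7a5 was 2.47 log2 units lower and met the rule. The median of the 8 was -2.85 against -0.38 over all genes. Slc3a2 stood at 745 CPM in CP-EC, with 35.7% of the counts from 1 cell and 558 CPM without it. Its median cell held 74.2 CPM there, against 1515 CPM in capilEC. Among its light chains, Slc7a7 at 177 CPM, read in 35.3% of CP-EC cells, stood beside Slc7a5.

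Among the mural labels the carriers differed most in Slc6a20a. In aSMC against PC, 1 of 9 measured genes was higher, Slc38a2 (385 against 71.0 CPM, 2.36, plates 0.31 to 6.84), and 2 were lower, Slc6a20a (14.2 against 958, -5.65, plates -8.16 to -3.86) and Slc7a5 (9.72 against 60.1, -2.14, plates -3.69 to 0.43), where 1.22% and 1.26% of all genes met the rule. Without plate s480s the differences were 1.23 for Slc38a2 and -1.46 for Slc7a5, and both calls were lost. They were also lost, with that of Slc6a20a, where cells with markers of any other class were left out (1.69, -0.37 and -5.70). Slc3a2 (-2.43) and Slc38a3 (-4.17) then met the rule as lower in aSMC. Slc7a5 was also not called with equal weight of cells (-1.75) or a pseudocount of 20 CPM (-1.43). Nor was it called without the cell of the largest count, where PC stood at 47.1 CPM. Slc38a3, lower in aSMC by 1.86 log2 units, also met the rule without plate s482s (-3.03), without the cell of the largest count (-2.72) and without cells holding fibroblast genes (-2.02), and Slc3a2 met it in the last of these (-2.17). The immediate early genes summed to 17994 CPM in aSMC against 5484 CPM in PC, a part that was not tested. In vSMC against PC, 1 gene was lower, Slc38a3 (34.3 against 228 CPM, -2.57, plates -3.97 to -0.96), and 0 were higher, against 0.404% and 0.272% of all genes. Slc6a20a was lower in vSMC by 1.58 log2 units in the pooled cells, with the same sign in 4 of 4 plates (-2.27 to -0.10), and met the rule without plate s480s (-2.10). Other genes also entered with a plate left out, namely Slc1a1 without s480s (-2.75) or s483s (-2.68), Slc7a5 without s483s (-2.56) and, as higher in vSMC, Slc7a1 without s482s (2.55). With cells holding markers of any other class left out, PC and vSMC stood close for these genes. The levels were then 3.69 and 3.97 CPM for Slc1a1, 14.4 and 11.2 for Slc7a5, and 8.11 and 9.73 for Slc7a1. In PC 51.9% of the Slc1a1 counts came from 1 cell.

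FB differed from the endothelial mean in both directions. Of the 10 genes, 2 met the rule as higher, Slc6a20a (1916 against 1.38 CPM, 8.23) and Slc7a11 (2351 against 7.08, 7.61), and 4 as lower, Slc38a5 (15.6 against 946, -5.53), Slc7a5 (3.91 against 280, -5.00), Slc6a6 (133 against 1728, -3.65) and Slc7a1 (32.9 against 382, -3.35). Over all genes 2.29% and 3.96% met it. Slc38a3 (0.29), Slc3a2 (0.61) and Slc38a2 (1.08) lay within 4-fold, as did Slc1a1 (-1.79), which met the rule as lower without its 1 high cell (-4.67). The median of the 10 was -0.75 against -0.63 over all genes. The 9 cells lay on 4 plates with fewer than 5 on any, so that no value by plate is given.

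MG was set against the same endothelial mean as FB. In MG, 6 of 9 measured genes met the rule as lower than the endothelial mean and 0 as higher, against 3.73% and 2.19% of all genes. The log2 differences were -5.08 for Slc38a5, -4.10 for Slc1a1, -3.68 for Slc38a3, -3.23 for Slc6a6, -3.03 for Slc7a5 and -2.98 for Slc7a1, each with the same sign in 4 of 4 plates. Slc1a1 was not called with the share of cells taken after thinning. Slc3a2 (763 against 1109 CPM, -0.54) and Slc38a2 (237 against 155, 0.60) were within 4-fold. The immediate early genes summed to 27305 CPM in MG, and their part in the Slc38a2 level was not tested. The median of the 9 was -3.03 against -0.26 over all genes. In the 14 MG cells with more than 10% of the endothelial list level Slc38a3 stood at 463 CPM and Slc7a5 at 164 CPM, against 10.3 and 15.1 CPM in the other 123.

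The list of 40 other amino acid transporters added carriers of the cells around the endothelium. Slc38a11, a member of the Slc38 family, was higher in the mural than in the endothelial mean (601 against 4.61 CPM, a log2 difference of -5.98 for endothelial minus mural), the only 1 of 23 measured genes of the list called there, where 1.12% of all genes were called as lower. In FB 4 of 23 were higher than in the endothelial mean, beside 2.29% of all genes, namely Slc6a13, which encodes the GABA and taurine carrier GAT2 (1782 against 0.523 CPM, 8.34), Slc7a2, which encodes the cationic carrier CAT2 (234 against 0.558, 5.43), Slc1a3, which encodes the glutamate carrier GLAST (1151 against 26.9, 5.18), and Slc1a5, which encodes the neutral carrier ASCT2 (313 against 4.32, 5.09). Slc7a2 was higher still in PC (274 CPM), and Slc1a5 stood at 123, 171 and 109 CPM in PC, aSMC and vSMC. Both were read in 55.6% of FB cells. In MG 1 of 17 was higher than in the endothelial mean, beside 2.19% of all genes, namely Slc7a8 (696 against 16.1 CPM, 5.06, plates 3.88 to 6.33). The list gave 0 genes in the other 6 comparisons. Averaged over the 9 types per kb of exon, the highest of the list were Slc6a13 (72.5 CPM per kb), Slc38a11 (46.8), Slc7a7 (20.3), Slc1a5 (20.2) and Slc1a3 (18.7).

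Genes that ATF4 and NRF2 are known to control were read because Slc7a11, Slc7a5, Slc3a2 and Slc38a2 are among the known targets of 1 or both. Of the 20 ATF4 targets 13 to 18 were measured, and 0 met the size rule in any of the 9 comparisons, as did 0 of the 13 NRF2 targets. Since 0.0955% to 3.96% of all genes met it in a direction, lists of this size would hold few such genes, and nothing is read from these counts. The 4 ATF4 genes highest in capilEC were Atf4 itself (198 CPM, against 118 in FB and 711 in MG), Nars (110 CPM, 442 in FB), Aars (95.3 CPM, 152 in FB) and Eprs (93.5 CPM, 78.6 in FB), the last 3 encoding tRNA synthetases. The 4 NRF2 genes highest in capilEC were Fth1 and Ftl1, the ferritin chains (1173 and 564 CPM, against 1610 and 766 in FB), Nfe2l2, which encodes NRF2 (208 CPM, 109 in FB), and the heme transporter gene Slc48a1 (171 CPM, 113 in FB). In FB against the endothelial mean the medians were -0.67 for ATF4 targets and -0.65 for NRF2 targets, beside -0.63 over all genes.

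For each carrier, the 3 genes with the most similar pattern were found by Pearson's r of log2(CPM + 5) over the 9 types, among 3744 other genes of at least 50 CPM and a read in at least 50% of cells in some type. Each point is a whole type, so that such values describe 9 libraries that also differ in depth and cell number. The best 3 of 3744 genes over 9 points can be high from the search alone, and no level for unrelated genes was computed. Slc6a20a was most like Lama2 (0.99), Anpep and Igf2 (both 0.98), with Lama2 at 452 CPM in PC, 158 in vSMC and 412 in FB. Slc7a11 was most like Slc22a6, Ranbp3l and Megf10 (all 0.98), each at 330 CPM or more in FB and at 0.428 CPM or less in the other 8 types. Slc6a6 followed Limch1 (0.99), Slc2a1 and Sigirr (both 0.98), and Slc7a5 followed Slc16a1 (0.97), Tdrp and Slc16a4 (both 0.95). Slc7a1 was most like Slc19a3 (0.96), Pllp (0.95) and Fn1 (0.94), all low in CP-EC. Slc38a3 was most like Klhl5 (0.95), Itih5 and Parvb (both 0.93), Slc38a5 like Alad (0.92), Slc16a1 (0.90) and Vwf (0.89), and Slc3a2 like Hsd3b7 (0.92), Nasp and Gmfb (both 0.89). The lowest values were those of Slc38a2 with Ubr2 (0.90), Snx4 and Ghitm (both 0.88) and of Slc1a1 with Rgs12 (0.88), Cxcl12 (0.86) and Lrrn3 (0.84).

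Within capilEC the carriers were compared in pairs over single cells. The pairs include Slc6a20a and Slc7a11, which stood at 2.08 and 2.84 CPM there. Over 787 cells, Spearman's rho of the 45 pairs ran from -0.16 to 0.23, and 0 pairs were above 0.1 in every plate. The highest, between Slc7a1 and Slc38a3 (0.23), was 0.02 to 0.09 within single plates, and both genes were lower on plate s169s. Between the heavy chain Slc3a2 and Slc7a5 rho was 0.08 (plates 0.01 to 0.15). These are correlations in sparse counts from cells that share plates, and weak values are no finding.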

How the data were processed

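Counts are the authors' deposited read counts per gene and cell, not normalized. The submitters' processing notes name featureCounts, Subread 1.4.6-p5 and SAMtools 1.16.1, as well as 2 builds, GRCm39 and GRCm38, with no role for either. No aligner is given in these sources. Cell types are the labels deposited with the cells, and 0 columns of values were left out. The 10 genes and the lists were chosen with earlier results of these data known.

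Reads were summed over the cells of each type and divided by the type's total (counts per 1000000 reads, CPM). Levels per kb used merged exons of GENCODE M21 (GRCm38). Of 46517 gene symbols, 42052 matched the table of gene names. A gene counted as measured above 5 CPM in either group. Plates with 5 or more cells of each type gave the values by plate. For shares of cells with a read, each cell was thinned to 100000 reads. No doublet caller was run. With 1 sample per label no test was possible. The genes named beside the 10 were those that met the size rule, the 5 transporters highest per kb, the 4 genes of each target list highest in capilEC and the 3 genes most like each member. Cells with markers of another class were those above 10% of the list's median level in its own type, or above 5000 CPM of the astrocyte list.

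The alternatives were other scalings (TMM factors of edgeR 4.0.16, size factors of DESeq2 1.42.0), pseudocounts of 1 and 20 CPM, other minimums, equal weight of cells, and leaving out plates or cells. The scripts were tested on simulated data. Python 3.11.15, numpy 2.4.6, pandas 2.3.3, scipy 1.17.1, matplotlib 3.10.9 and R 4.3.3 were used.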

Additional observations from a re-analysis of the deposited data

How the results depend on the processing

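Each of the 9 comparisons was recomputed under 16 other settings, 1 of them, without cells holding fibroblast genes, chosen after seeing the data. Of 1440 values of single genes, 809 stayed within the 95% counting interval of the difference and 631 moved beyond it. The settings without a minimum CPM, without a minimum share of cells and with the thinned share leave each difference unchanged. Their values are among the 809 by design, so that this number does not measure stability. No called difference changed sign. The number of the 10 genes that met the size rule in aEC against capilEC was 1 to 2 over the fits that leave out a plate, with Slc7a5 added without s169s. In vEC against capilEC it was 1 to 2, with Slc7a5 added without s483s. In aEC against vEC it was 1 with a pseudocount of 20 CPM and 1 with the thinned share of cells, both without Slc1a1. In aSMC against PC it was 1 to 4 over plates left out and 5 without cells holding fibroblast genes. In vSMC against PC it was 1 to 3 over plates left out, 2 with no minimum CPM and 2 without cells holding fibroblast genes. For endothelial against mural labels it was 6 to 8, with Slc7a1 lost under DESeq2 size factors and a pseudocount of 20 CPM (lowest 1.94) and Slc1a1 and Slc6a20a lost with the thinned share. It was 5 to 6 for CP-EC, 6 to 7 for FB and 5 to 6 for MG, where Slc1a1 was lost with the thinned share. The type with the highest level stayed the same for 8 to 10 of the 10 genes over 11 settings, the exceptions being Slc3a2, Slc38a3 and Slc38a2. Over all genes, without the minimum share of cells, the calls went from 370 to 845 in that comparison, from 28 to 88 for aEC and from 60 to 176 for vEC against capilEC, from 115 to 331 for aEC against vEC, from 256 to 1177 for CP-EC, from 304 to 1078 for aSMC, from 82 to 949 for vSMC, from 762 to 2276 for FB and from 743 to 1489 for MG. DESeq2 size factors moved the median of all genes by -0.18 to 0.33 log2 units and TMM factors by -0.17 to 0.26. The causes were not tested. No paired analysis was possible because each label is 1 sample and the labels carry no replicate numbers. Values of FB and CP-EC rest on 9 and 17 cells.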
